A study of Mus musculus with 23 samples.

Results

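The 36 genes described here belong to the unfolded protein response of the endoplasmic reticulum (ER) and to the heat shock response. They were chosen by name, as every probe set whose platform gene symbol is on the list, and gave 88 of the 45101 probe sets of the array and 36 of its 18193 singly named genes. Expression was measured in medulloblastomas of the genotype Ptch+/-HIC+/-, dissociated from the tumours of transgenic mice and grown under the skin of nude (nu/nu) mice, which have few T cells but keep their other blood and connective tissue cells. All 8 groups are such allografts, and every group carries the same tumour genotype in the same kind of host. Vehicle was given in 3 arrays with no stated time and in 2 arrays labelled 4 h. NVP-LDE225 (LDE225AZ in the sample descriptions), which blocks Smoothened, the membrane protein that passes on the Hedgehog signal, was given at 40 mg/kg to sensitive tumours collected at 4, 8, 24 and 48 h, with 3 arrays each. Resistant tumours were sampled on 40 mg/kg and on 160 mg/kg, 3 arrays for each dose, and the labels give no time since dosing. Groups follow the sample descriptions, which a further label contradicts on 6 of the 12 arrays of 4 to 48 h by calling the tumour resistant. Nothing states that each replicate is its own mouse, and the p-values cover only the spread between arrays, which may be technical.

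Proteins of the secretory pathway fold in the ER with the help of chaperones such as Hspa5 (BiP), Hsp90b1 (GRP94) and the protein disulfide isomerases. When folding falls behind, the sensors Ern1 (IRE1), Eif2ak3 (PERK) and Atf6 raise chaperone and degradation genes through Xbp1 and Atf6 and slow translation, while Atf4 and Ddit3 (CHOP) raise amino acid, feedback and death-linked genes. The heat shock response serves the cytosol and the mitochondria through heat shock factors and chaperones such as Hspa8, Hsp90aa1 and the chaperonin pair Hspd1 and Hspe1. Dividing cells need both systems to fold newly made protein.

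The promoter sequences were searched for the elements of these routes. RefSeq promoter windows (build GRCm38.p6, 250 bases before to 50 after a start) matched 31 of the 36 members. Manf, Hyou1, Atf6, Hspa8 and Hsp90aa1 had none. The ER stress element, CCAAT and CCACG with 9 free bases between them, is the site of Atf6 and Xbp1 with the factor NF-Y, and was searched on both strands. It was found for 8 members and in 0.119% of all 32851 windows. These elements are shown because 6 of the 8 genes were called lower at 24 and at 48 h. Of all genes 14.4% were called lower at 24 h and 21.3% at 48 h. Pdia3, Pdia4 and Sdf2l1, with a window but no such element, were called lower at both times too. Each element reads in the direction of the motif, with its fixed letters in capitals:
Hspa5, 65 bases before the start: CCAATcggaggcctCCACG
Hsp90b1, 212 bases before: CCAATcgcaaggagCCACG
Hsp90b1, 107 bases before: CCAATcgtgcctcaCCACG
Creld2, 126 bases before: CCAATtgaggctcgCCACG
Pdia6, 98 bases before: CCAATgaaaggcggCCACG
Dnajc3, 105 bases before: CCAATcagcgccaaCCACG
Canx, 145 bases before: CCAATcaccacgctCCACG
Calr, 162 bases before: CCAATgagggtcgaCCACG
Syvn1, 44 bases before: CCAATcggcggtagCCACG

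The Hspa5 and Herpud1 promoters are shown at greater length since these genes are the usual readouts of the response. The Hspa5 stretch is chr2:34771995-34772089 on the plus strand. Herpud1 (chr8:94386287-94386428, plus strand) holds the compact form, ATTGG and CCACG with 1 free base between them, present in 0.0365% of windows and, after the start, in Dnajb11 too. Farther from its start it holds the Atf4 composite site TGATGNAA, here on the opposite strand. That short site was in 3.97% of all windows and in those of Asns, Atf3, Chac1, Herpud1 and Trib3. Capitals mark the fixed letters:
Hspa5: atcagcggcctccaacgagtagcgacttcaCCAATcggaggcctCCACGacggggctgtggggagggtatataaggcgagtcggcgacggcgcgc
Herpud1: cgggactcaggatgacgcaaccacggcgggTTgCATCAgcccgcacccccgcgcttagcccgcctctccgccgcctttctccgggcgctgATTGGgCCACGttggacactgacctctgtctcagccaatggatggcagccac

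Hspd1 and Hspe1, the mitochondrial chaperonin and its lid, are neighbours on opposite strands of chromosome 1. RefSeq gives Hspd1 a pair of starts: 1 lies 216 bases before the Hspe1 start, so that the genes are transcribed away from each other, and the other lies 95 bases inside Hspe1, so that its transcript runs back across the Hspe1 start. The heat shock element, searched as GAA, TTC and GAA with 2 free bases at each gap, was found on both strands, overlapping itself, between the Hspe1 start and the farther Hspd1 start. The element was in 0.603% of windows and, among the members, in those of Hspd1, Hspe1 and Hsph1. Capitals mark its fixed letters, and positions are given from the Hspe1 start:
Hspe1, chr1:55088059-55088071, 89 bases before, minus strand: GAAggTTCtaGAA
Hspe1, chr1:55088064-55088076, 84 bases before, plus strand: GAAccTTCcgGAA
The other unfolded protein element, TGACGTGG, was in 0.676% of windows and in no window of the 31 members.

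The values are MAS5 signals, which are linear intensities scaled to the same trimmed mean on every array. The number of arrays limits their precision. A gene is read from its probe set with the highest mean signal, changes are log2 differences of signal plus 16, and a call means an adjusted p below 0.05 in limma, with 35069 probe sets in the adjustment. Where leaving out 1 array ended a call, that array is named with the adjusted p without it in parentheses. All 36 genes passed the filter on low signal. Trib3, near the array background, exceeded its array's 40th percentile on 11 of 23 arrays. The array median ranged from 33.9 to 46.7. As a measure of RNA integrity, the 3' actin probe set exceeded the 5' one by a log2 difference of 1.04 ± 0.040 in vehicle, 1.65 ± 0.22 at 24 h and 0.92 ± 0.067 at 48 h (SD, n = 3 each). Progenitor and tumour markers such as Atoh1 and Zic1 were present on all arrays, with summed signals of 10124 to 16684 over 8 genes.

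The shortest exposure was compared with the vehicle of the same time. At 4 h of drug against the 4 h vehicle, 0 of the 36 genes and 0.347% of all 14980 genes were called by limma. For 1 member the unadjusted p was under 0.05, a rule whose share over all genes was not counted. The median change was 0.088 for the members and 0.012 for all genes. Hspa5 gave 9244, 7326 and 8738 on the drug arrays and 6659 and 8896 on the vehicle arrays, so the groups overlapped. Its log2 change was 0.13 (SE 0.16, adjusted p = 0.96).

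At 8 h of drug, still against the 4 h vehicle, 2 of the 36 genes were called, and 4.6% of all genes were. Syvn1, the ubiquitin ligase HRD1 of ER-associated degradation, rose from 283 and 371 to 542, 582 and 504, and the groups did not overlap. The change was 0.71 (SE 0.14, adjusted p = 0.0043), and its second probe set rose by 0.60. Hsph1, the cytosolic HSP110 that helps Hspa8 exchange nucleotide, fell from 1960.0 and 1634 to 1032, 1257 and 1073 (log2 change -0.67, SE 0.14, adjusted p = 0.0043). The second Hsph1 probe set was not called (log2 change -0.59, SE 0.17, adjusted p = 0.053). Both calls were lost with 4 h vehicle replicate 1 left out, with an adjusted p of 0.16 for Syvn1 and 0.13 for Hsph1. The remaining vehicle array is then assumed to vary like the other groups. With the run of identifier numbers as a block, 4 h vehicle replicate 1 has a term of its own. That is the same check again, with the same changes of 0.53 for Syvn1 and -0.54 for Hsph1 and both calls lost. Hsph1 also lost its call with the other vehicle group as control (-0.38, adjusted p = 0.062).

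Xbp1, the factor whose messenger is spliced by Ern1, was not called at 8 h by its brightest probe set, while others were. Its brightest probe set gave 2359.7, 2614 and 2282 against 1899 and 2002 in vehicle (log2 change 0.31, SE 0.11, adjusted p = 0.14). Of its other probe sets 1 rose by 0.41 (SE 0.10, adjusted p = 0.025) and another by 0.39 (SE 0.11, adjusted p = 0.045). On all 3 of these probe sets the 8 h arrays lay above both vehicle arrays. The probe sets were not matched to the spliced or the unspliced form.

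By 24 and 48 h most ER folding genes had fallen, while a few stress factors had risen. Both times were compared with the same 3 vehicle arrays that have no stated time, so the 2 comparisons share their controls. At 24 h, 4 members rose, 16 fell and 16 were not called, where 19.7% of all genes rose and 14.4% fell. At 48 h, 3 rose, 19 fell and 14 were not called, where 25.1% of all genes rose and 21.3% fell. The arrays of both groups did not overlap for 27 members at 24 h and 24 at 48 h, beside 48.5% and 56.2% of all genes. The median change of the members was -0.29 at 24 h and -0.32 at 48 h, beside 0.10 and 0.056 for all genes. The heat map of log2 changes shows the block of falls among the ER chaperones and the rises of Ern1, Ddit3 and Atf3.

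**Figure D1:**
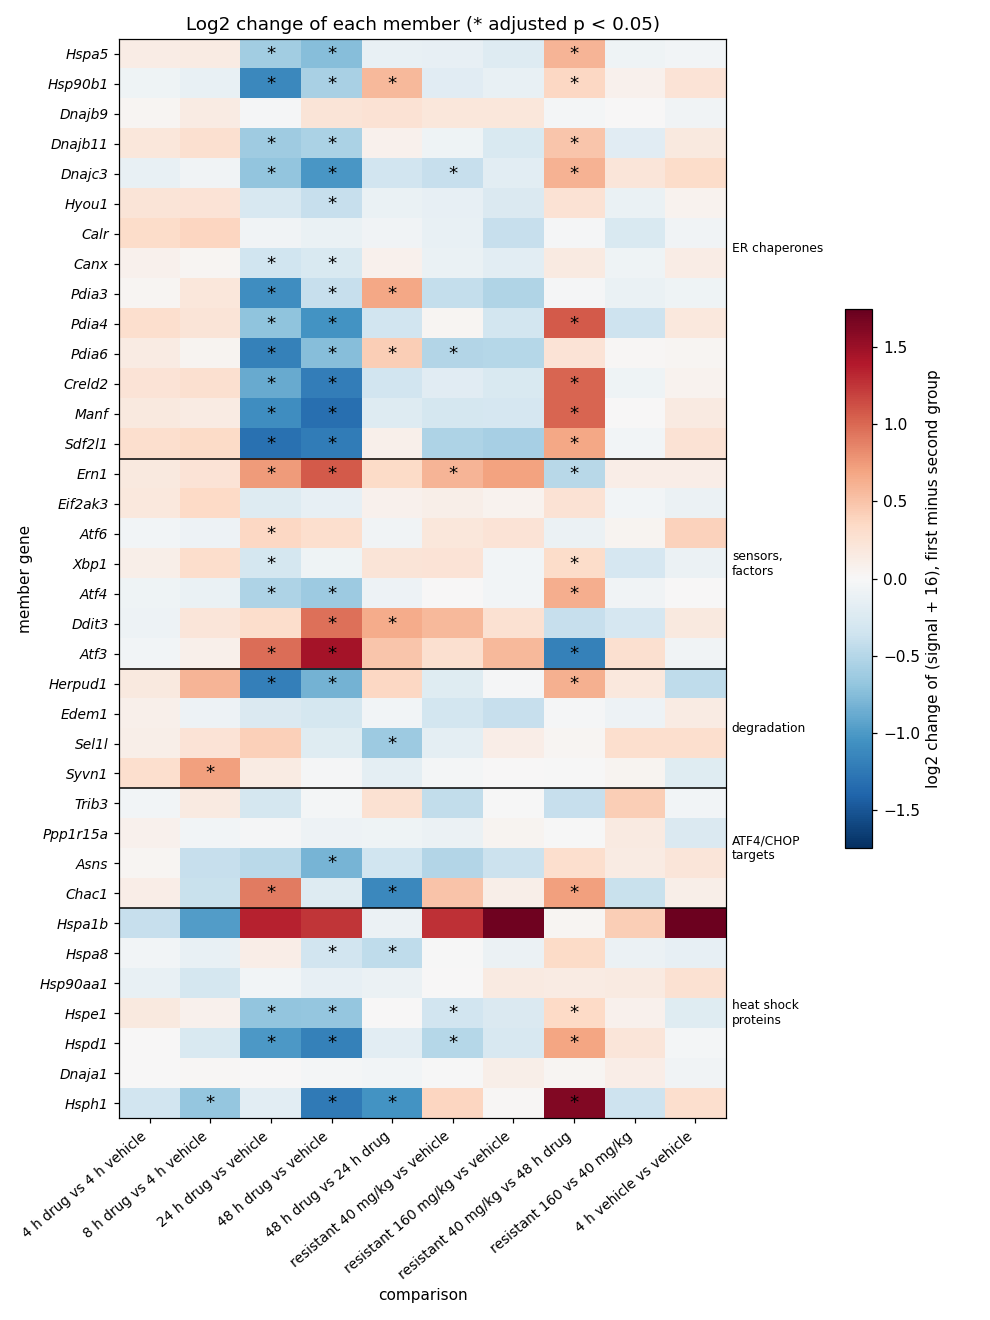
Log2 change of signal plus 16 for each of the 36 members (rows, by role) in each of the 10 comparisons (columns), red where the first group was higher and blue where it was lower, with an asterisk at an adjusted p under 0.05. At 48 h against vehicle, 19 members were called lower and 3 higher, and against the 4 h vehicle at 4 h none was.

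The make-up of the tumours moved at the same times. Macrophage markers summed to 1968 to 3435 in vehicle, 4154 to 6885 at 24 h and 31055 to 41816 at 48 h over 15 genes, and all 15 rose at 48 h. Fibroblast and matrix markers had 9 of 10 risen at 48 h (3792 to 9063 against 34035 to 49018), and young granule neuron markers 7 of 8 (2256 to 2389 against 15514 to 16071). Endothelial markers had 9 of 10 risen at 48 h (458 to 803 against 1642 to 2463), and neutrophil markers 3 of 5 tested. The neutrophil sums, over 7 measured genes, were 70.9 to 99.0 against 312 to 475. Elane, Mpo, Ngp and Camp had low signals, averaging 8.1, 6.03, 20.4 and 19.6 in vehicle. At 48 h they averaged 6.93, 14.3, 28.5 and 8.63. Muscle markers were high at 24 h (11052 to 15184), with 10 of 12 genes risen (median 3.07). They were also high in vehicle replicate 2, the vehicle range being 986 to 11276. Of the other lists at 24 h, 7 of 15 macrophage and 4 of 10 endothelial markers had risen. Fibroblast and matrix markers had 7 of 10 higher and 1 lower, and young granule neuron markers 6 of 8 higher. Neutrophil markers had 0 of 5 higher, and progenitor and tumour markers 2 of 8 higher and 4 lower. At 48 h the muscle sums ranged from 1837 to 13996, with 1 of 12 genes risen (median 1.59). Plasma cells are secretory cells with a strong unfolded protein response. The B and plasma cell markers summed to 162 to 204 in vehicle and 169.8 to 357 at 48 h, where 2 of 7 rose. Sdc1, Pou2af1 and Cd79b averaged 92.8, 10.4 and 8.23 in vehicle and 147, 39.6 and 26.4 at 48 h. Jchain was at 17.2 and 17.4. Cd79a, Ms4a1 and Mzb1 averaged 23.4, 20.6 and 10.6 in vehicle and 9.23, 10.9 and 7.63 at 48 h. All but Sdc1 were low signals. Progenitor and tumour markers had 6 of 8 called lower at 48 h and 2, Zic1 and Barhl1, higher (14044 to 15739 against 10124 to 12277). The list mixes lineage genes with Hedgehog pathway genes such as Gli1 and Ptch1, so its sum does not count tumour cells. At 4 h 4 of the 8 were already lower than in the 4 h vehicle. Gli1 averaged 608 in that vehicle and 100 at 4 h, and Ptch1 2232 and 1095. The part of these cells in the changes below was not tested, and in whole tumours fewer cells of a type and less RNA per cell cannot be told apart.

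Among 14 ER chaperones and folding enzymes, 11 fell and 0 rose at 24 h, and 12 fell and 0 rose at 48 h. Their median change was -0.70 and -0.65. Of all genes, 14.4% fell at 24 h and 21.3% at 48 h. Hspa5, the master chaperone that also holds the 3 sensors inactive, gave 8345, 8052 and 7594 on the vehicle arrays, 5705, 4414 and 5669.7 at 24 h and 4876, 3927 and 5624 at 48 h. All 6 treated arrays lay below every vehicle array. The change was -0.61 (SE 0.14, adjusted p = 0.0022) at 24 h and -0.75 (SE 0.14, adjusted p = 0.00018) at 48 h, which left 60.1% of the vehicle mean, and both other probe sets of Hspa5 were called lower at both times. Hsp90b1, the HSP90 of the ER, gave 4772, 4579 and 4202 in vehicle, 1958, 1762 and 2513 at 24 h and 3020.0, 3141 and 3001 at 48 h. It was thus lower at 24 h (log2 change -1.13, SE 0.11, adjusted p = 1.5e-08) than at 48 h (log2 change -0.56, SE 0.11, adjusted p = 0.00014), with no overlap between any of the 3 groups.

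Among the ER chaperones the largest falls at 48 h were those of Manf, Sdf2l1 and Creld2. Manf, a secreted factor held in the ER by Hspa5, gave 3499.8, 3572 and 2961 in vehicle, 1505, 1355 and 1867 at 24 h and 1318, 1291 and 1374 at 48 h. Its change was -1.09 (SE 0.11, adjusted p = 3.9e-08) and then -1.32 (SE 0.11, adjusted p = 8.7e-10), and the 48 h mean was 39.7% of vehicle. Sdf2l1, a cofactor that keeps Hspa5 cycling on its clients, gave 766, 774 and 576 in vehicle against 261, 242 and 320.2 at 24 h and 282, 259.8 and 337 at 48 h. It fell by 1.31 and by 1.22 (adjusted p = 1e-05 and 1.4e-05). Creld2, a disulfide isomerase-like protein raised by ER stress, gave 985, 1048 and 824 in vehicle against 458, 338 and 412 at 48 h (log2 change -1.21, SE 0.14, adjusted p = 1.4e-07). For all 3 genes the treated and vehicle arrays did not overlap at either time.

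The disulfide isomerases and the Hspa5 co-chaperones followed with differences between them. Pdia4 gave 866, 829.5 and 733 in vehicle, 512, 396 and 571 at 24 h and 308, 389 and 474 at 48 h (log2 change -1.04, SE 0.21, adjusted p = 0.00028 at 48 h). Its 24 h call was lost without 24 h replicate 2 (0.079). Pdia6 gave 2131, 2095 and 1684 in vehicle, 856, 744 and 982 at 24 h and 1212, 898 and 1423 at 48 h, with changes of -1.18 (SE 0.15, adjusted p = 2.1e-06) and -0.75 (SE 0.15, adjusted p = 0.00032). Pdia3, the isomerase of glycoprotein folding that works with Calr and Canx, gave 3570.1, 3523 and 2902 in vehicle and 1547, 1342 and 1802 at 24 h (log2 change -1.09, SE 0.15, adjusted p = 6.6e-06). At 48 h it gave 2438, 2188 and 2912 (log2 change -0.41, SE 0.15, adjusted p = 0.037), and this call was lost without 48 h replicates 1 and 3 (0.092 and 0.16) and vehicle replicates 1 and 2 (0.12 and 0.12). It was also lost after quantile normalization (-0.24, adjusted p = 0.21), with the other vehicle group as control (0.14), without the trend of eBayes (0.082) and with no filter (0.052). The other Pdia3 probe set was not called at 24 h (log2 change -0.40, SE 0.20, adjusted p = 0.14) or at 48 h (log2 change -0.41, SE 0.20, adjusted p = 0.12). Dnajc3 (P58IPK), a co-chaperone that also restrains Eif2ak3, gave 1038, 970.1 and 1024 in vehicle and 548, 423 and 516 at 48 h (log2 change -1.01, SE 0.12, adjusted p = 2.8e-07), and all 4 of its other probe sets were called lower at 24 and at 48 h. Dnajb11, the co-chaperone that hands clients to Hspa5, changed by -0.63 (SE 0.14, adjusted p = 0.0015) at 24 h and -0.55 (SE 0.14, adjusted p = 0.0029) at 48 h.

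The lectin chaperones, Hyou1 and Dnajb9 had smaller changes or none called. Calr, which binds glycoproteins and calcium, gave 5766, 4975 and 4605 in vehicle and 4668, 4195 and 5302 at 48 h, with overlap (log2 change -0.12, SE 0.16, adjusted p = 0.63), although 1 of its 2 other probe sets was called lower at both times (-0.38 and -0.41). Canx, its membrane-bound relative, fell by 0.35 at 24 h (adjusted p = 0.0057, and 0.053 after quantile normalization). At 48 h Canx fell by 0.27 (adjusted p = 0.022, and 0.4 after quantile normalization), a call lost without 48 h replicates 3 and 4 (0.056 and 0.062) and vehicle replicates 1 and 2 (0.11 and 0.058). Hyou1, the ER relative of HSP110, changed by -0.28 (SE 0.11, adjusted p = 0.067) at 24 h and fell by 0.40 at 48 h (adjusted p = 0.0074, and 0.056 without 48 h replicate 3). Another of its probe sets fell further, by 0.90 and 1.29. Dnajb9, a co-chaperone that shuts off Ern1, gave 598, 622 and 669.5 in vehicle and 745, 760.3 and 709 at 48 h. The 48 h arrays of Dnajb9 all lay above the vehicle arrays, but the gene was not called (log2 change 0.22, SE 0.093, adjusted p = 0.061).

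**Figure D2:**
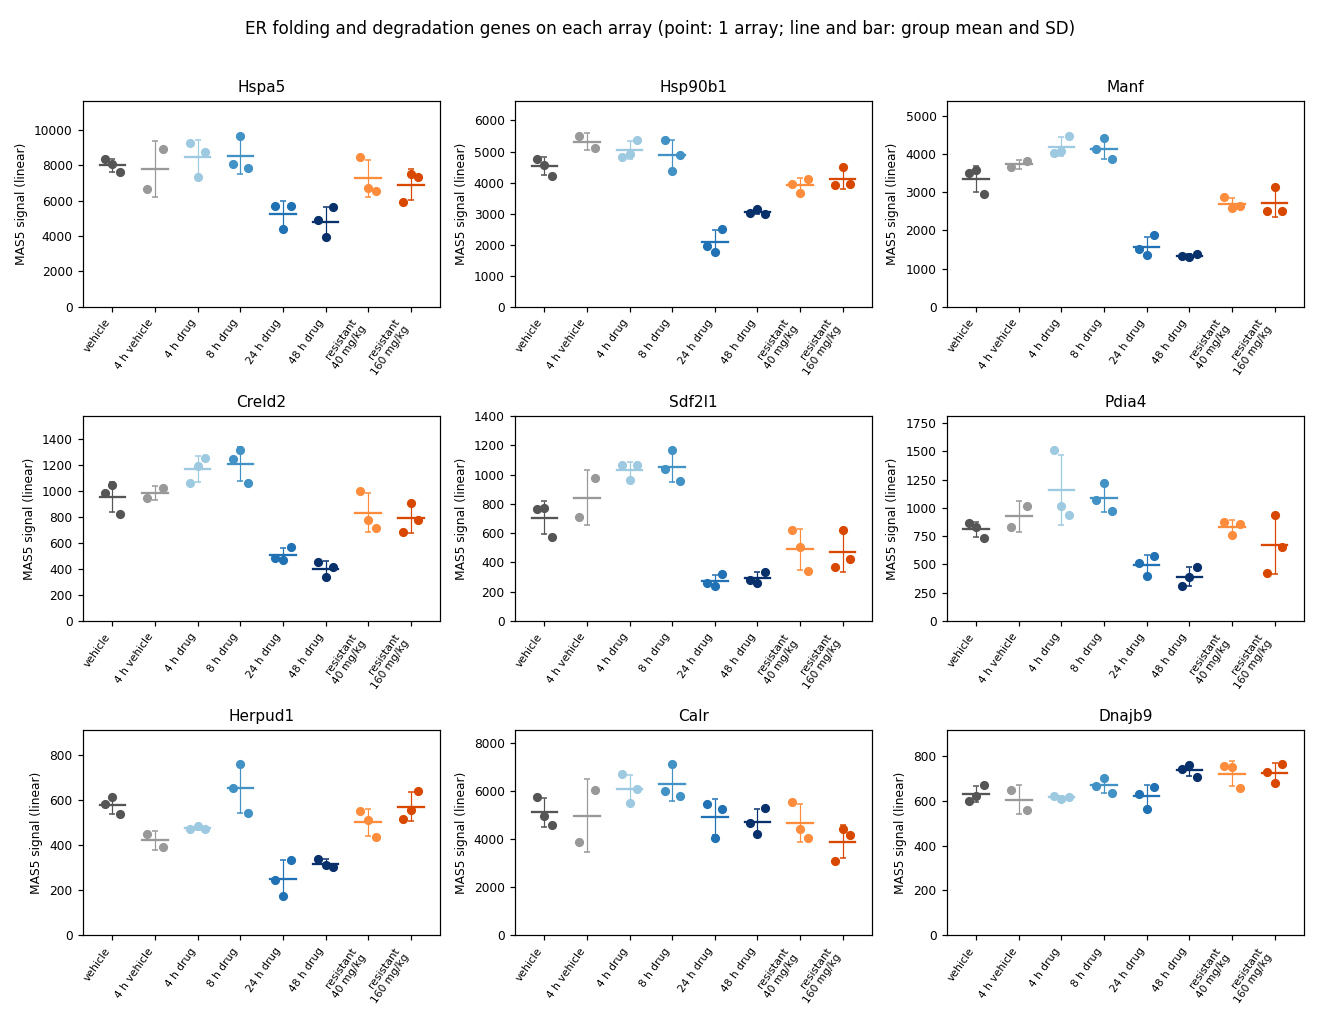
MAS5 signal (linear axis from 0) of 9 genes on each of the 23 arrays, with a point for each array and the mean and SD of each of the 8 groups. Hspa5, Manf, Creld2, Sdf2l1 and Pdia4 were lower on every 24 h and 48 h array than on every vehicle array, while Calr overlapped and Dnajb9 was slightly higher at 48 h.

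The sensors and transcription factors did not move as the chaperones did. Of 7 genes, 3 rose and 2 fell at 24 h, and 3 rose and 1 fell at 48 h. Over all genes 19.7% rose and 14.4% fell at 24 h, and 25.1% and 21.3% at 48 h. Ern1, the kinase and nuclease that splices the Xbp1 messenger, gave 78.3, 98.0 and 119 in vehicle, 183, 180.4 and 156 at 24 h and 268, 194 and 211 at 48 h. The groups did not overlap, and the change was 0.74 (SE 0.18, adjusted p = 0.0031) and 1.08 (SE 0.18, adjusted p = 3.6e-05). Of its 3 other tested probe sets, 1 was called higher at 48 h (0.64) and the other two, which are near background, were not. With the mean of all Ern1 probe sets the gene was not called at 24 h (0.33, adjusted p = 0.27) or at 48 h (0.29, adjusted p = 0.3).

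Atf3 and Ddit3, stress-induced factors downstream of Atf4, rose as well. Atf3 had low signals of 50.9, 18.9 and 39.8 in vehicle, 99.1, 72.9 and 81.2 at 24 h and 146, 85.7 and 149 at 48 h. Each treated array exceeded each vehicle array, with changes of 0.98 (SE 0.29, adjusted p = 0.013) and 1.46 (SE 0.29, adjusted p = 0.00026). The 24 h call was lost without 24 h replicate 1 (0.058) and vehicle replicate 2 (0.1). Ddit3, the factor CHOP linked to cell death under ER stress, gave 124, 119 and 121 in vehicle, 148, 169 and 146 at 24 h and 245, 239 and 269.9 at 48 h. It was not called at 24 h (log2 change 0.31, SE 0.19, adjusted p = 0.25) and rose at 48 h (log2 change 0.96, SE 0.19, adjusted p = 0.00023), and its second probe set changed by 0.58 (SE 0.29, adjusted p = 0.12) at 48 h.

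Atf4 itself, whose activity depends mainly on translation of its messenger, fell. It gave 1240.2, 1334 and 1324 in vehicle, 908, 892 and 864 at 24 h and 754, 862 and 888 at 48 h. No treated array reached a vehicle array, and the changes were -0.54 (SE 0.083, adjusted p = 2.1e-05) and -0.63 (SE 0.083, adjusted p = 1.2e-06), with the other tested probe set at -0.67 and -0.66. Xbp1 fell at 24 h (log2 change -0.30, SE 0.10, adjusted p = 0.019), with 2 of its other probe sets also called lower, and was near vehicle at 48 h (log2 change -0.081, SE 0.10, adjusted p = 0.56). The Xbp1 call at 24 h was lost without 24 h replicates 1 and 2 (0.051 and 0.12) and vehicle replicate 3 (0.082). It was also lost with the other vehicle group as control (0.22), after quantile normalization (0.16) and without the trend of eBayes (0.059). The identifier run as a block (0.055) gave the same Xbp1 change as leaving out 24 h replicate 1, so it is not a separate check. Eif2ak3, the kinase that slows translation, changed by -0.22 (SE 0.10, adjusted p = 0.12) and -0.15 (SE 0.10, adjusted p = 0.29) and was not called. Atf6, a membrane-held factor freed by cleavage, gave 172, 158 and 166 in vehicle and 209, 227 and 216 at 24 h (log2 change 0.36, SE 0.13, adjusted p = 0.033). That call was lost when any of the 6 arrays was left out, without 24 h replicates 1, 2 and 3 (0.053, 0.099 and 0.069) and vehicle replicates 1, 2 and 3 (0.052, 0.099 and 0.068), and against the 4 h vehicle, with 234 and 216, the sign turned.

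**Figure D3:**
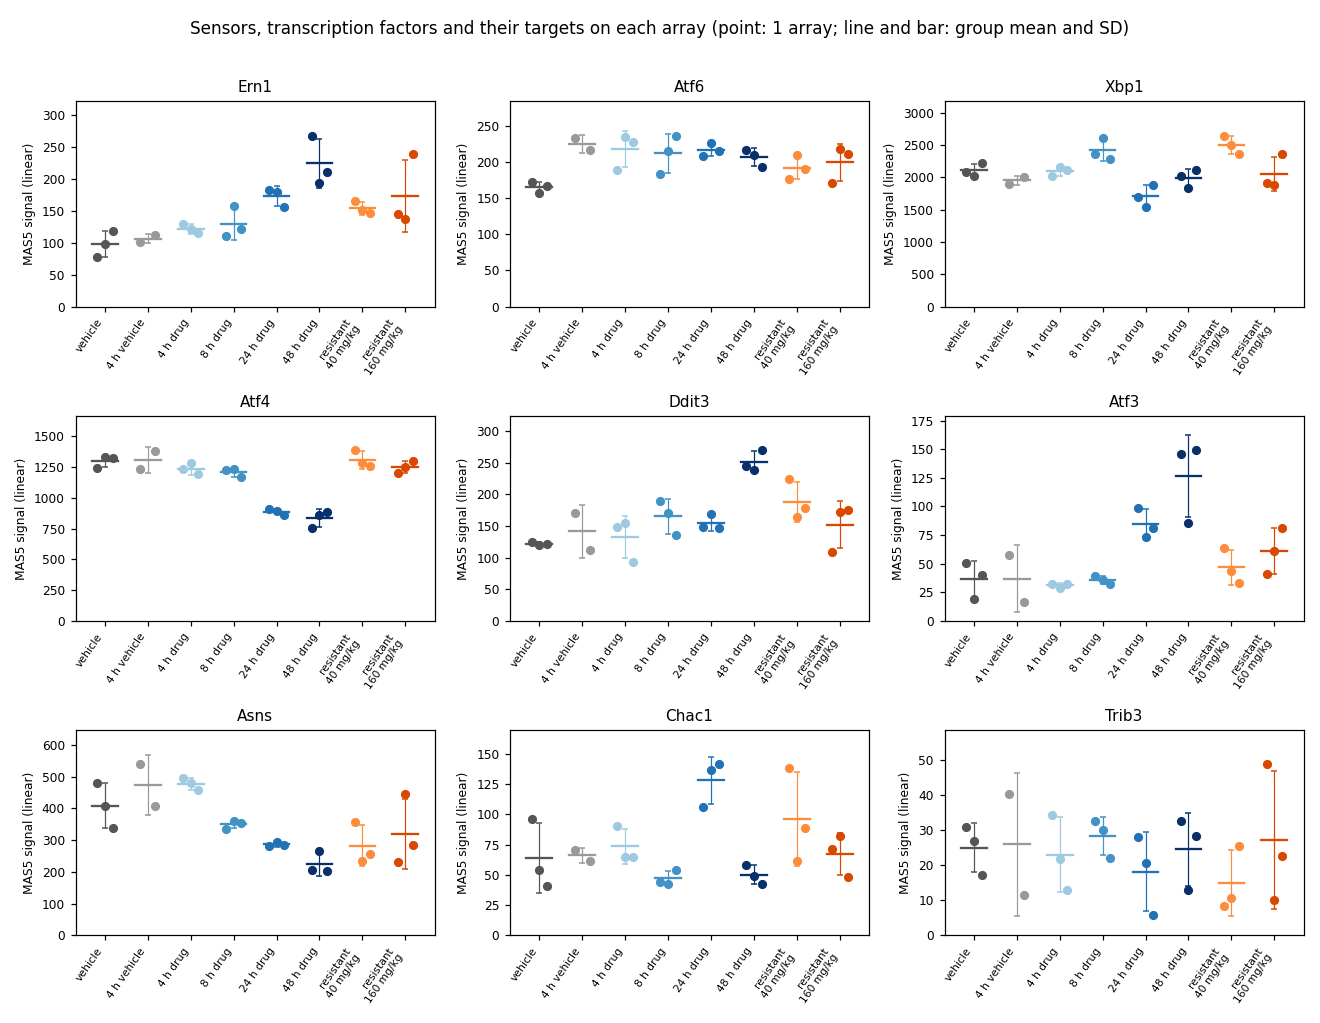
MAS5 signal (linear axis from 0) of sensors, transcription factors and their targets on each of the 23 arrays, with a point for each array and the mean and SD of each group. Group means of Ern1, Atf3 and Ddit3 were highest at 48 h, those of Atf4 lowest at 24 and 48 h, and that of Chac1 highest at 24 h.

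Among 4 genes of ER-associated degradation, which draws misfolded proteins out for the proteasome, only Herpud1 was called against vehicle at 24 or 48 h by its brightest probe set. Herpud1 gave 585, 615 and 538 in vehicle, 244, 173 and 337 at 24 h and 340.5, 312 and 303 at 48 h. The groups did not overlap, and the change was -1.20 (SE 0.16, adjusted p = 2.9e-06) and -0.83 (SE 0.16, adjusted p = 0.00016), with its second probe set also called lower at both times. The 4 h vehicle arrays gave 451 and 393, and against these the 48 h arrays were not called (-0.39, adjusted p = 0.1). Sel1l, the partner of Syvn1 in the degradation complex, changed by 0.42 (SE 0.18, adjusted p = 0.079) and -0.21 (SE 0.18, adjusted p = 0.39) by its brightest probe set. Of its 4 other probe sets 1 was called lower at 24 h (log2 change -0.58, SE 0.19, adjusted p = 0.022), and the rest were not called. Edem1, which extracts glycoproteins, changed by -0.30 (SE 0.14, adjusted p = 0.092) at 48 h by its brightest probe set. Its other probe set went the other way, with 220.2, 173 and 148 in vehicle and 456, 269.8 and 511 at 48 h (log2 change 1.09, SE 0.20, adjusted p = 0.00012). Syvn1 was at 0.14 (SE 0.13, adjusted p = 0.45) at 24 h and -0.025 (SE 0.13, adjusted p = 0.91) at 48 h.

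The targets of Atf4 and Ddit3 were split. Asns, asparagine synthetase, gave 479, 407 and 337 in vehicle and 205, 266 and 202 at 48 h (log2 change -0.82, SE 0.18, adjusted p = 0.00077), with no overlap, and its other probe set fell by 0.94. Chac1, which degrades glutathione, rose for a time: it gave 96.2, 54.0 and 40.9 in vehicle, 106, 137 and 141 at 24 h (log2 change 0.91, SE 0.25, adjusted p = 0.0078) and 58.1, 49.1 and 42.4 at 48 h (log2 change -0.22, SE 0.25, adjusted p = 0.54). Its 24 h call was lost without vehicle replicate 3 (0.062). Ppp1r15a (GADD34), which restores translation, was at -0.025 (SE 0.22, adjusted p = 0.95) and -0.094 (SE 0.22, adjusted p = 0.78). Trib3, a feedback inhibitor, had signals of 5.90 to 48.9 over all 23 arrays, near background, and was called in none of the 10 comparisons.

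Other Atf4 targets, from a list of 24 with 23 tested, were called lower more often than higher. At 48 h 12 fell and 2 rose (median -0.42), and at 24 h 10 fell and 2 rose (median -0.33). Among all genes 21.3% fell and 25.1% rose at 48 h, and 14.4% and 19.7% at 24 h. The strongest calls at 48 h were enzymes of serine and folate synthesis and an amino acid carrier. Phgdh, the first enzyme of serine synthesis, fell from 1158 ± 106 to 141 ± 44.4 (SD, n = 3 each), a log2 change of -2.94 (SE 0.20, adjusted p = 3.1e-11). Psat1, the next enzyme, changed by -1.25 (SE 0.13, adjusted p = 2.9e-08), the leucine carrier Slc7a5 by -2.37 (SE 0.23, adjusted p = 9.7e-09) and the mitochondrial folate enzyme Mthfd2 by -1.87 (SE 0.18, adjusted p = 1e-08).

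Heat shock genes of the mitochondria fell, and those of the cytosol were mixed. Of 7 genes 2 fell at 24 h and 4 at 48 h, and 0 rose at either time by the brightest probe set. The shares of all genes were 14.4% lower and 19.7% higher at 24 h, and 21.3% and 25.1% at 48 h. Hspd1 gave 3147, 3571 and 3159 in vehicle, 1685, 1482 and 1734 at 24 h and 1387, 1464 and 1457 at 48 h. Its partner Hspe1 gave 1864, 2041 and 1846 in vehicle, 1061, 1341 and 1152 at 24 h and 1135, 1328 and 1116 at 48 h. For both genes the treated arrays lay below every vehicle array. Hspd1 changed by -1.005 (SE 0.10, adjusted p = 3.9e-08) and -1.19 (SE 0.10, adjusted p = 1.4e-09), and Hspe1 by -0.69 (SE 0.10, adjusted p = 1e-05) and -0.68 (SE 0.10, adjusted p = 6.8e-06). The second Hspe1 probe set fell by 0.35 at 24 h and was not called at 48 h (-0.32).

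Hsph1, lower at 8 h against the 4 h vehicle, was called against the other vehicle arrays only at 48 h by its brightest probe set. It gave 1271, 1741 and 1399.6 in vehicle, 1402, 1328 and 1121 at 24 h and 593, 638 and 595 at 48 h, so the 24 h arrays overlapped vehicle and the 48 h arrays lay well below. The change was -0.19 (SE 0.12, adjusted p = 0.27) at 24 h and -1.24 (SE 0.12, adjusted p = 1.4e-08) at 48 h, and its second probe set was called lower at both times (-0.69 and -1.25). Hspa8, the constitutive HSP70, gave 14006, 14245 and 12390.1 in vehicle and 9553, 10174 and 12705 at 48 h, with overlap (log2 change -0.33, SE 0.13, adjusted p = 0.048). That call was lost without 48 h replicates 1 and 3 (0.21 and 0.14) and vehicle replicates 1 and 2 (0.12 and 0.14), and with the other vehicle group as control (0.36), all 5 vehicle arrays (0.067), no filter (0.082), an offset of 1 (0.058), eBayes without trend (0.1) or the mean of its probe sets (0.18). Of its 3 other probe sets 1 was called higher at 24 h (log2 change 0.82, SE 0.26, adjusted p = 0.018), where the brightest was at 0.11 (SE 0.13, adjusted p = 0.57), and 1 lower at 48 h (log2 change -0.30, SE 0.095, adjusted p = 0.014). Dnaja1, a cytosolic co-chaperone of HSP70, was at 0.011 (SE 0.10, adjusted p = 0.95) at 24 h and -0.036 (SE 0.10, adjusted p = 0.82) at 48 h.

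Hspa1b, the heat-inducible HSP70, was called in none of the 10 comparisons, and its signal varied widely within some groups. Its 4 h vehicle arrays gave 876 and 18.8 and its resistant arrays at 160 mg/kg 42.1, 453 and 178. Vehicle gave 27.2, 54.8 and 34.1, while 24 h gave 136, 95.0 and 132 and 48 h 168, 69.2 and 114, all above vehicle. The log2 change was 1.34 (SE 0.72, adjusted p = 0.17) at 24 h and 1.25 (SE 0.72, adjusted p = 0.19) at 48 h. The near-identical gene Hspa1a can share its probes, so the value may belong to either gene.

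**Figure D4:**
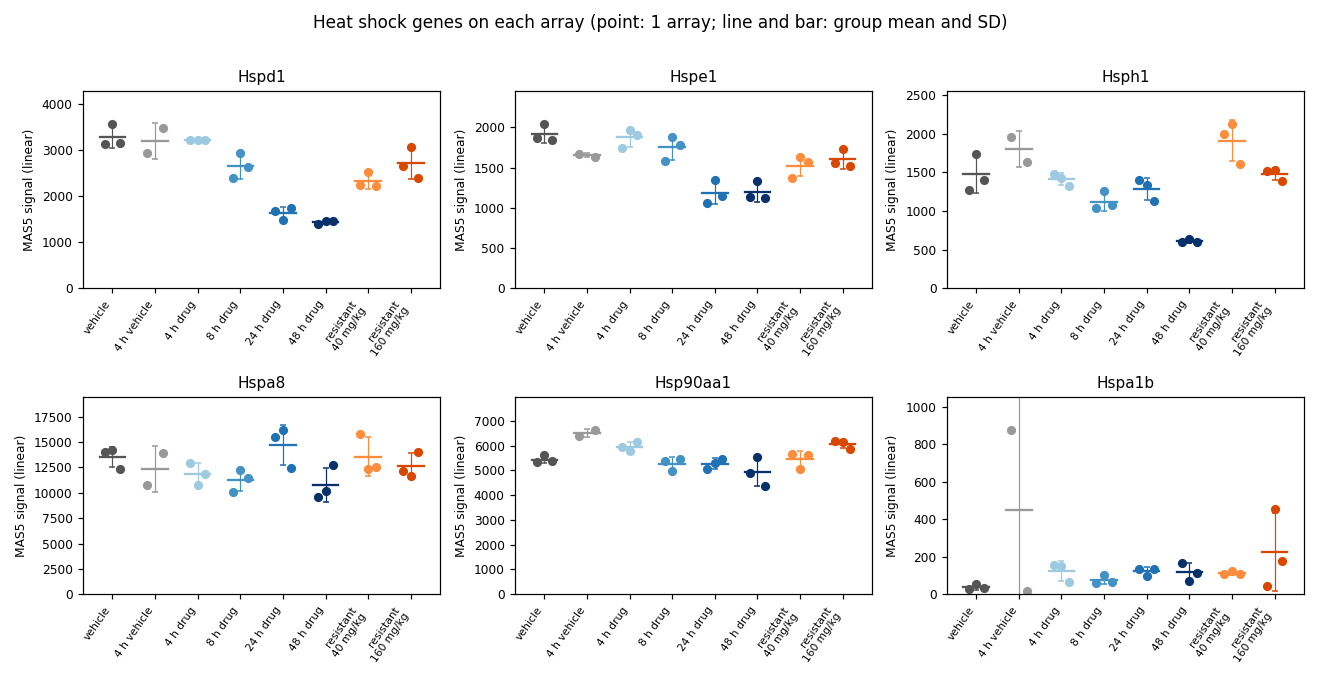
MAS5 signal (linear axis from 0) of 6 heat shock genes on each of the 23 arrays, with a point for each array and the mean and SD of each group. Hspd1 and Hspe1 were lower on every 24 h and 48 h array than in vehicle, Hsph1 was low at 48 h, and 1 of the 2 arrays of the 4 h vehicle stood at 876 for Hspa1b.

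Hsp90aa1, the stress-inducible cytosolic HSP90, depended on the probe set. Its brightest probe set gave 5337, 5609 and 5374 in vehicle and 5047, 5316 and 5467 at 24 h (log2 change -0.044, SE 0.082, adjusted p = 0.74). The second probe set gave 4107, 3984 and 4011 in vehicle and 2492, 2096 and 2433 at 24 h (log2 change -0.79, SE 0.094, adjusted p = 6.7e-07), and the third gave 2182, 2154 and 2094 and 1029, 1108 and 1111 (log2 change -0.98, SE 0.10, adjusted p = 6.9e-08). Both lay below every vehicle array at 24 h and were higher again at 48 h, where the second gave 3275, 3650.4 and 3840.3 and the third 1694, 2078 and 1940.0. The second Hsp90b1 probe set was at -1.88 at 24 h and -0.85 at 48 h. The 3' to 5' actin ratio was highest at 24 h (1.65 ± 0.22) and lowest at 48 h (0.92 ± 0.067), and its part in these values was not tested.

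**Figure D5:**
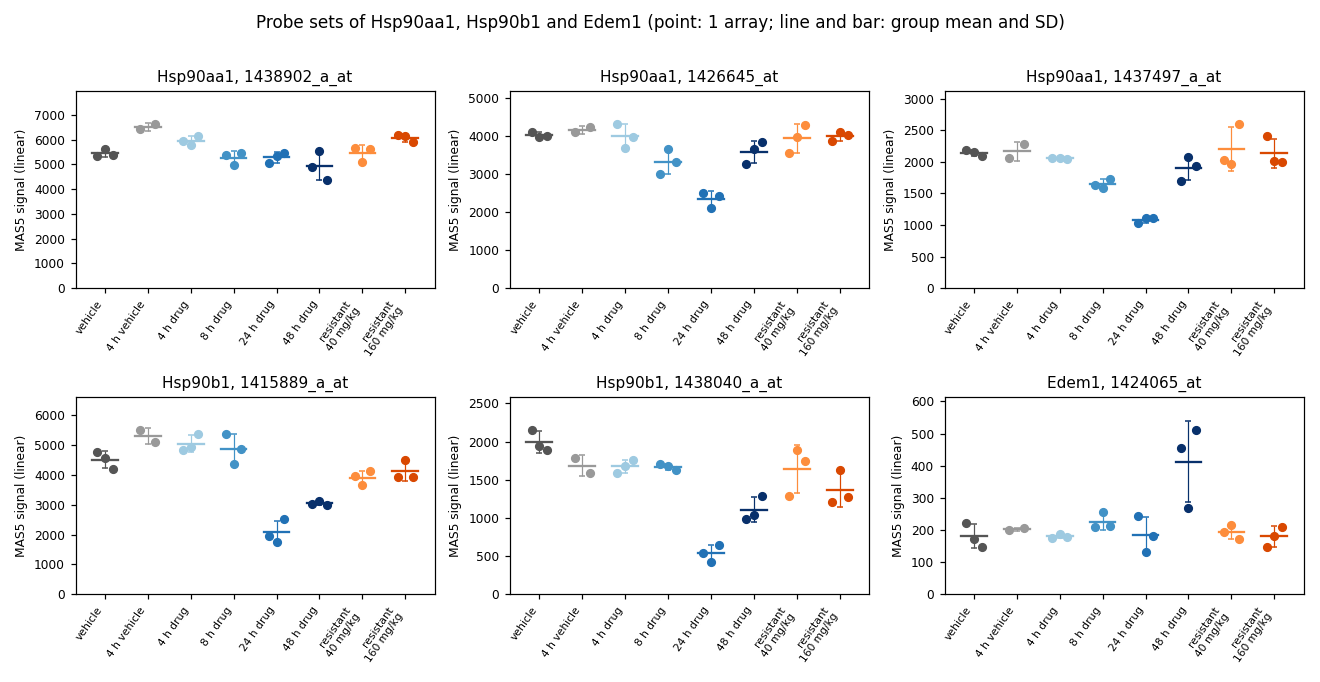
MAS5 signal (linear axis from 0) of the 3 probe sets of Hsp90aa1 that exceeded the 40th percentile on all 23 arrays, 2 of Hsp90b1 and 1 of Edem1 on each of the 23 arrays, with a point for each array and the mean and SD of each group. Of the Hsp90aa1 probe sets 2 dipped at 24 h and the brightest did not, both Hsp90b1 probe sets were lowest at 24 h, and the Edem1 probe set was highest at 48 h.

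Called genes were compared with their other tested probe sets. At 24 h 12 of the 20 called genes had one, and in 9 another was called in the same direction. At 48 h it was 12 of 15. It was lower elsewhere, with 1 of 2 at 8 h and 3 of 7 for 48 against 24 h. For resistant tumours at 40 mg/kg it was 1 of 4 against vehicle and 6 of 9 against 48 h. In no comparison was a probe set of a called gene called the opposite way.

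The step from 24 to 48 h was tested directly. Of 36 members 4 rose, 4 fell and 28 were not called, where 11.9% of all genes rose and 13.1% fell. Hsp90b1 rose by 0.57 (SE 0.11, adjusted p = 0.00041), Pdia3 by 0.68 (SE 0.15, adjusted p = 0.0024) and Pdia6 by 0.43 (SE 0.15, adjusted p = 0.049), and these chaperones lay nearer to vehicle at 48 h. Ddit3 rose by 0.65 (SE 0.19, adjusted p = 0.016). Hsph1 fell by 1.05 (adjusted p = 1.5e-06), Chac1 by 1.13 (adjusted p = 0.0021), Sel1l by 0.63 (adjusted p = 0.013) and Hspa8 by 0.45 (adjusted p = 0.017). By their brightest probe sets the other 11 ER chaperones were not called in this step, among them Hspa5 (log2 change -0.14, SE 0.14, adjusted p = 0.57) and Sdf2l1 (log2 change 0.092, SE 0.19, adjusted p = 0.8). Other probe sets of genes not called by the brightest did pass the threshold. Those of Hsp90aa1 rose by 0.61 and 0.80, that of Edem1 by 1.08 and that of Xbp1 by 0.34. A probe set of Hyou1 changed by -0.70 and 1 of Dnajc3 by -0.41.

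Several of these step calls rested on single arrays or probe sets. Pdia6 was not called without 24 h replicates 1 and 2 (0.099 and 0.21) and 48 h replicates 1 and 4 (0.14 and 0.28), nor Ddit3 without 24 h replicate 3 (0.054) and 48 h replicate 4 (0.067). Sel1l was not called without 24 h replicate 2 (0.053) and 48 h replicate 1 (0.055), nor Hspa8 without 24 h replicates 1 and 2 (0.069 and 0.097) and 48 h replicates 1 and 3 (0.1 and 0.058). With the mean of a gene's probe sets the step was not called for Pdia3 (0.34, adjusted p = 0.09), Pdia6 (0.19, adjusted p = 0.45), Sel1l (-0.11, adjusted p = 0.67) or Ddit3 (0.47, adjusted p = 0.084). After quantile normalization the step of Hspa8 was -0.13, adjusted p = 0.19. Pdia6 lost its call under 11 of 16 alternatives, and without 48 h replicate 4 its step was 0.28, adjusted p = 0.28. The calls of Hsp90b1, Chac1 and Hsph1 held under all 16 alternatives run for this step.

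Resistant tumours were then compared with the same 3 vehicle arrays. At 40 mg/kg 1 member rose, 4 fell and 31 were not called, where 5.39% of all genes rose and 4.45% fell. The median change was -0.11 for the members, -0.17 for the 14 ER chaperones and 0.023 for all genes. Macrophage markers had 13 of 15 higher (median 1.83), fibroblast and matrix markers 5 of 10 higher and 1 lower (median 1.30) and neutrophil markers 2 of 5 higher, and their part was not tested. Hspa5 gave 8477, 6729 and 6540.1, overlapping vehicle (log2 change -0.15, SE 0.14, adjusted p = 0.64). Hspd1 gave 2249, 2518 and 2216, below all 3 vehicle arrays (log2 change -0.50, SE 0.10, adjusted p = 0.0029), and its call held under all 18 alternatives run.

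The other 4 calls at 40 mg/kg were near the threshold. Dnajc3 fell by 0.40 (adjusted p = 0.044), Pdia6 by 0.52 (adjusted p = 0.04) and Hspe1 by 0.33 (adjusted p = 0.047), and Ern1 rose by 0.59 (SE 0.18, adjusted p = 0.049). No other tested probe set of Pdia6, Hspe1 or Ern1 was called, and for Dnajc3 1 of 4 was. Dnajc3 was not called without resistant 40 mg/kg replicates 2 and 3 (0.098 and 0.18) and vehicle replicates 1, 2 and 3 (0.13, 0.078 and 0.12), nor Pdia6 without resistant 40 mg/kg replicates 2 and 3 (0.051 and 0.18) and vehicle replicates 1 and 2 (0.15 and 0.14). Hspe1 was not called without resistant 40 mg/kg replicates 1 and 3 (0.19 and 0.061) and vehicle replicates 1, 2 and 3 (0.093, 0.18 and 0.08), nor Ern1 without resistant 40 mg/kg replicates 1, 2 and 3 (0.14, 0.098 and 0.066) and vehicle replicates 1 and 2 (0.23 and 0.11). Without vehicle replicate 1 only Hspd1 was called. The count was 2 without vehicle replicate 2, 3 without vehicle replicate 3, and 2 without resistant 40 mg/kg replicate 2 or 3. With the 4 h vehicle as control it was 8 (1 higher and 7 lower), and with all 5 vehicle arrays 8 (2 higher and 6 lower).

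At 160 mg/kg 12 members had an unadjusted p under 0.05, with no share of all genes counted for that rule. By adjusted p in limma 0 members were called, beside 1.44% of all genes. Ern1 came closest, with 145, 137 and 239 on the resistant arrays (log2 change 0.71, SE 0.18, adjusted p = 0.059). Manf gave 2518, 3132 and 2506 (log2 change -0.30, SE 0.11, adjusted p = 0.2) and Sdf2l1 366, 625 and 426 (log2 change -0.59, SE 0.19, adjusted p = 0.15), and both genes were lower on average than in vehicle without being called. The median change of the 14 ER chaperones was -0.27, with 1 of 14 above 0, beside 0.0085 for all genes. Macrophage markers had 7 of 15 higher (median 1.18), with sums of 3570.5 to 13440, and young granule neuron markers 2 of 8 higher. The part of these cells was not tested. The count of called members was 1 without resistant 160 mg/kg replicate 1 and 3 without replicate 2. The 2 resistant groups were then set against each other: 3 members had an unadjusted p under 0.05, again with no share of all genes counted. By adjusted p 0 members were called, beside 2.8% of all genes. That count was 1 without resistant 160 mg/kg replicate 3 and 1 without resistant 40 mg/kg replicate 1. For Hspa5 the difference was -0.069 (SE 0.14, adjusted p = 0.92).

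At the same dose of 40 mg/kg, resistant tumours were compared with sensitive tumours at 48 h. Here 15 members were higher, 2 lower and 19 not called, where 17.8% of all genes were higher and 19.2% lower. The arrays did not overlap for 20 members, beside 45.2% of all genes. Of the 14 ER chaperones 8 were higher and 0 lower, with a median of 0.42. Pdia4 gave 878, 759 and 853 in resistant tumours and 308, 389 and 474 at 48 h (log2 change 1.08, SE 0.21, adjusted p = 0.0003). Manf gave 2874, 2584 and 2644 against 1318, 1291 and 1374 (log2 change 1.01, SE 0.11, adjusted p = 1.3e-07), and Creld2 1002, 779 and 717 against 458, 338 and 412 (log2 change 1.02, SE 0.14, adjusted p = 3.6e-06). In these 3 genes no resistant array overlapped a 48 h array. Hspa5 was higher by 0.60 (SE 0.14, adjusted p = 0.0024) and Dnajc3 by 0.61 (SE 0.12, adjusted p = 0.00033).

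The heat shock gene Hsph1 showed the greatest difference of the members in that comparison. It gave 1997, 2122 and 1606 in resistant tumours and 593, 638 and 595 at 48 h (log2 change 1.61, SE 0.12, adjusted p = 5.4e-10). Hspd1 was higher by 0.69 (SE 0.10, adjusted p = 9.8e-06), Hspe1 by 0.35 (SE 0.10, adjusted p = 0.0098), Atf4 by 0.64 (SE 0.083, adjusted p = 2e-06) and Herpud1 by 0.63 (SE 0.16, adjusted p = 0.0038). Xbp1 was higher by 0.33 (SE 0.10, adjusted p = 0.011) and Chac1 by 0.72 (SE 0.25, adjusted p = 0.032). Atf3 was lower, with 63.5, 43.6 and 33.3 against 146, 85.7 and 149 (log2 change -1.18, SE 0.29, adjusted p = 0.003), and Ern1 was lower by 0.49 (adjusted p = 0.045). Macrophage markers, which sum to 10281 to 14335 in resistant tumours and 31055 to 41816 at 48 h, were also lower, with 14 of 15 called. Young granule neuron markers had 6 of 8 lower (median -2.98), fibroblast and matrix markers 7 of 10 lower (median -1.23) and endothelial markers 4 of 10 lower. Progenitor and tumour markers, which include Hedgehog pathway genes, had 6 of 8 higher and 2 lower (median 1.22). The part of all these cells in the differences was not tested.

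By other probe sets, 2 of Hyou1 and 1 of Pdia6 were called higher and 1 of Edem1 lower, where the brightest were not called. Some of these calls rested on single arrays. Hsp90b1, higher by 0.36 (adjusted p = 0.012), was not called without resistant 40 mg/kg replicate 3 (0.054), nor after quantile normalization (adjusted p = 0.1). Dnajb11 (0.48, adjusted p = 0.011) was not called without resistant 40 mg/kg replicate 1 (0.11), nor Sdf2l1 (0.68, adjusted p = 0.008) without resistant 40 mg/kg replicate 1 (0.066). Xbp1 was not called without 48 h replicate 3 (0.06), and Hspe1 without resistant 40 mg/kg replicate 2 (0.05) and 48 h replicate 4 (0.053). Chac1 was not called without resistant 40 mg/kg replicates 1 and 3 (0.2 and 0.061) and 48 h replicates 3 and 4 (0.068 and 0.11), and Ern1 without resistant 40 mg/kg replicates 1, 2 and 3 (0.052, 0.096 and 0.12) and 48 h replicates 1 and 4 (0.21 and 0.072).

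Other genes of the same systems were described from lists chosen with earlier results of these data known. Beside them, 25.1% of all genes rose and 21.3% fell at 48 h, and 19.7% and 14.4% at 24 h. Of 34 tested ER stress genes outside the members, 5 rose and 12 fell at 48 h (median -0.15), and 5 rose and 8 fell at 24 h (median -0.037). Derl3, a degradation channel protein, fell from 249.6 ± 34.0 to 41.2 ± 15.1 (log2 change -2.24, SE 0.28, adjusted p = 4.6e-07), Stt3b, a subunit of the glycosylation enzyme, changed by -1.11 (SE 0.086, adjusted p = 3.7e-10) and Ero1b, which reoxidises the isomerases, by -1.24 (SE 0.17, adjusted p = 1.7e-06). Os9, a lectin of the degradation complex, rose from 299 ± 42.8 to 565 ± 23.8 (log2 change 0.89, SE 0.14, adjusted p = 1.5e-05, SD, n = 3 each). Of 31 tested heat shock genes outside the members, 3 rose and 19 fell at 48 h (median -0.28). They include subunits of the cytosolic chaperonin, with Tcp1 at -1.12 (SE 0.083, adjusted p = 1.5e-10), Cct3 at -0.88 (SE 0.076, adjusted p = 1.8e-09) and Cct6a at -0.85 (SE 0.086, adjusted p = 2.3e-08), and the HSP70 to HSP90 adaptor Stip1 at -0.95 (SE 0.094, adjusted p = 1.8e-08).

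In resistant tumours at 40 mg/kg these lists stood beside 5.39% of all genes called higher and 4.45% lower. ER stress genes had 0 risen and 1 fallen of 34, the translocon-associated Ssr1 at -0.30 (SE 0.080, adjusted p = 0.025). Heat shock genes had 1 risen and 3 fallen of 31, with the collagen chaperone Serpinh1 at 0.44 (SE 0.13, adjusted p = 0.043), Stip1 at -0.38 (SE 0.094, adjusted p = 0.014), the mitochondrial HSP70 Hspa9 at -0.41 (SE 0.11, adjusted p = 0.02) and Tcp1 at -0.29 (SE 0.083, adjusted p = 0.036). Atf4 targets had 0 risen and 4 fallen of 23, all in serine, folate or amino acid supply: Psat1 at -0.92 (SE 0.13, adjusted p = 9.2e-05), Shmt2 at -0.76 (SE 0.13, adjusted p = 0.00076), Phgdh at -0.80 (SE 0.20, adjusted p = 0.012) and Slc7a5 at -0.84 (SE 0.23, adjusted p = 0.023).

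By promoter element, the 10 members with an ER stress element in either form had 8 called lower and 0 higher at 24 h, and the same numbers at 48 h, where 14.4% and 21.3% of all genes were lower, with Syvn1 and Calr among those not called. Falls were not confined to these genes. Of the ER chaperones with a window but no such element, Pdia3, Pdia4 and Sdf2l1 were called lower at both times and Dnajb9 at neither. Manf, lower at both times, had no window. Against resistant tumours at 40 mg/kg, the 48 h arrays were lower for 6 of the 10, where 17.8% of all genes were. The 5 members with the Atf4 composite site had 2 higher and 1 lower at 24 h and 1 higher and 2 lower at 48 h, where 19.7% and 25.1% of all genes were higher. All 3 members with a heat shock element, which in Hsph1 lies after the start, were called lower at 48 h. A match is only a run of letters and was not tested as a site of binding.

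The vehicle groups themselves were compared last. Of 36 members 6 had an unadjusted p under 0.05, with no share of all genes counted for that rule. By adjusted p in limma 0 members were called, beside 0.2% of all genes. The count was 1 without 4 h vehicle replicate 2. Herpud1 was lower in the 4 h vehicle (log2 change -0.45, SE 0.18, adjusted p = 0.52) and Atf6 higher (log2 change 0.41, SE 0.14, adjusted p = 0.43), neither past the threshold.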

How the data were processed

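RNA from 23 tumour samples was hybridised to an Affymetrix mouse array. The deposited table holds MAS5 signals (linear intensities) for 45101 probe sets, the algorithm being named in the submitters' processing notes without a version. The values match a scaling by the authors of each array to one trimmed mean, and background subtraction and scaling of this kind leave low signals noisy. The 64 control probe sets were left out, and a probe set was tested (35069 in all) if 2 or more arrays had it above their own 40th percentile. Platform annotation gave 34958 probe sets 1 symbol, 932 several and 9211 none. log2(signal + 16) was fitted with limma 3.58.1 in R 4.3.3 as 1 model of 8 groups (lmFit, eBayes with trend, 15 residual degrees of freedom), two-sided, with Benjamini-Hochberg adjustment per comparison and a threshold of 0.05. The offset makes fold changes of low genes too small. The script was tested on simulated data. Groups came from the sample descriptions. The text names all 36 members and, of 3 lists of other pathway genes, at most the 4 called genes of smallest p at 48 h and in resistant tumours at 40 mg/kg. The members and lists were chosen with earlier results of these data known. Alternatives varied the offset, filter, normalization, variance model, arrays in the fit, blocks, probe set rule, vehicle group and each array left out.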

Additional observations from a re-analysis of the deposited data

Results flagged for a closer look

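The effect of the drug against the same vehicle arrays differed between 24 and 48 h for 8 members, read by their brightest probe sets. The test was of the difference itself (limma, adjusted p under 0.05). The difference of 48 h from 24 h was 0.57 for Hsp90b1, 0.68 for Pdia3, 0.43 for Pdia6 and 0.65 for Ddit3. It was -0.63 for Sel1l, -1.13 for Chac1, -0.45 for Hspa8 and -1.05 for Hsph1, all on the log2 scale. The calls of Hsp90b1, Chac1 and Hsph1 held under all 16 alternatives run, while Pdia6 lost its call under 11, Hspa8 under 7, Ddit3 under 4, Sel1l under 3 and Pdia3 under 1. Without 48 h replicate 4 Pdia6 was 0.28, adjusted p = 0.28, and after quantile normalization Hspa8 was -0.13, adjusted p = 0.19. Over all genes 11.9% rose and 13.1% fell in the same comparison. The actin ratio also differed between these groups (1.65 ± 0.22 at 24 h and 0.92 ± 0.067 at 48 h), and its part was not tested.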

How the results depend on the processing

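Of 74 member calls over the 10 comparisons, 43 held under all alternatives run for them, and 1 reversed: Atf6 at 24 h was -0.047 with the 4 h vehicle as control (adjusted p = 0.862). For resistant tumours at 40 mg/kg against vehicle, 5 calls became 1 with no filter, without the trend, with the identifier run as a block or with the mean of a gene's probe sets. They became 2 after quantile normalization or with a fit of the compared arrays only, and 8 against all 5 vehicle arrays or the 4 h vehicle. At 160 mg/kg 0 became 1 with a 60th percentile filter and 2 with all 5 vehicle arrays. At 8 h 2 became 0 with the identifier run as a block, where 4 h vehicle replicate 1 is fitted by a term of its own, and 1 with the other vehicle group. For 48 against 24 h 8 became 5 with the mean of probe sets. The cause of these shifts was not tested. Same-numbered arrays did not deviate together (median correlation 0.00041 over 70 pairs, -0.11 to 0.12, and 5 of 23 arrays closest to their own number). With the replicate block, in which 48 h replicate 4 has a term of its own, the count at 40 mg/kg was 3 in place of 5. Leaving out 1 array at a time gave 0 to 0 calls at 4 h, 0 to 3 at 8 h, 17 to 19 at 24 h, 19 to 22 at 48 h, 6 to 8 for 48 against 24 h, 1 to 5 at 40 mg/kg, 0 to 3 at 160 mg/kg, 13 to 16 for 40 mg/kg against 48 h, 0 to 1 between the resistant groups and 0 to 1 between the vehicle groups. Groups of 2 or 3 arrays limit what small changes can be called, and signals near background, as for Trib3 and Atf3, are the least precise.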
